A study of Mus musculus with 16 samples.

Results

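Transforming growth factor beta (TGF-beta) ligands, their latency proteins and their receptors were followed in airway epithelium of mice with and without Itgb6. The set was chosen by name and comprised 10 genes: the ligands Tgfb1, Tgfb2 and Tgfb3, the latent TGF-beta binding proteins Ltbp1, Ltbp2, Ltbp3 and Ltbp4, and the receptors Tgfbr1, Tgfbr2 and Tgfbr3. Their RefSeq accessions matched 14 of the 41174 probes on the array, and all 10 genes entered a test of 18570 genes and unnamed transcripts. Ltbp1, Ltbp3, Tgfbr1 and Tgfbr2 had 2 probes each, and the other genes had 1.

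TGF-beta is secreted in a latent form, in which its propeptide stays wrapped around the mature ligand and is tied by a disulphide bond to a latent TGF-beta binding protein of the extracellular matrix. The ligand must be released before it can bind its receptors, and the integrin of the alpha v and beta6 subunits, found on epithelial cells, releases TGF-beta1 and TGF-beta3 by pulling on a short motif in their propeptides. The propeptide of TGF-beta2 lacks that motif. Free ligand joins the type II receptor to the type I receptor, a kinase that phosphorylates Smad proteins, and in airways the pathway is known for restraining epithelial growth and inflammation and for driving matrix deposition. Activation of this kind changes the protein and not the level of its mRNA, and arrays measure the mRNA only.

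RNA from airway epithelium collected by brushing was measured in 16 samples of FvB mice on one-colour arrays, with 4 arrays in each of 4 groups. Wild-type mice (wt) and mice with a knockout of integrin beta6 (ko) were 6 to 8 weeks old at sensitization. Mice of the wt_OVA and ko_OVA groups were injected with 20 ug of the egg protein ovalbumin (OVA) on days 1, 4 and 7 and then challenged intranasally with 10 ug every week over 9 weeks, and tissue was taken after another 24 h. The wt_saline and ko_saline groups went through the same course with saline alone, so no group was left without injections and nasal doses. The labels do not say whether the replicates of a group were separate animals or pools, so p-values measure the spread between these samples.

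Arrays differed in brightness: ko_OVA 4 had the lowest 75th percentile of signal, at 78.0 intensity units, and ko_saline 3 the highest, at 793, and between 43.3% and 74.5% of probes were well above background. The array wt_OVA 1 stood apart, with the highest share above background, a correlation of at most 0.973 with any other array, and a quality weight of 0.112 against 0.536 to 2.61 for the others. Itgb6, the targeted gene, lay between -0.93 and -0.39 on the wt arrays and between -1.71 and -0.73 on the ko arrays on the log2 scale defined in the next paragraph, and whether its probe lies in the disrupted part is not given in the sources used here, so it checks no label. All 11 measured markers of airway epithelium were well above background on every array. Markers of other cells were present too: between 11 and 14 of 14 fibroblast and smooth muscle markers and 8 or 9 of 9 macrophage and dendritic markers were above background on each array. In tissue RNA of this kind, fewer cells of a type and less RNA per cell cannot be told apart.

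None of the 10 genes changed significantly in any comparison. All levels are log2 ratios of a signal to its array's 75th percentile, with a floor at -3.32 below which dim probes have no order, and all differences are differences of these levels; a gene was called at a Benjamini-Hochberg adjusted p under 0.05 over all 18570 genes in limma. OVA against saline called 0 of the 10 members in wt, where 2.61% of all genes were called, and 0 of 10 in ko, where 0.749% were. Knockout against wild type called 0 of 10 after saline, against 0.162% of all genes, and 0 of 10 after OVA, against 0.145%. Averaged over the genotypes, OVA called 0 of 10 members against 6.46% of all genes, and averaged over the agents the knockout called 0 of 10 against 0.269%. The interaction, which asks whether the OVA effect differed between genotypes, called 0 of 10 members and 0% of all genes. At an unadjusted limma p under 0.05 the members numbered 1 for OVA in wt, 2 for OVA in ko, 2 for OVA over both genotypes and 0 in the other 4 contrasts, while 16.5%, 9.73% and 19.7% of all genes passed that mark in those 3 contrasts. With backgrounds this low, a set of 10 genes without a call does not stand out from the other genes. These contrasts share arrays with one another.

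**Figure D1:**
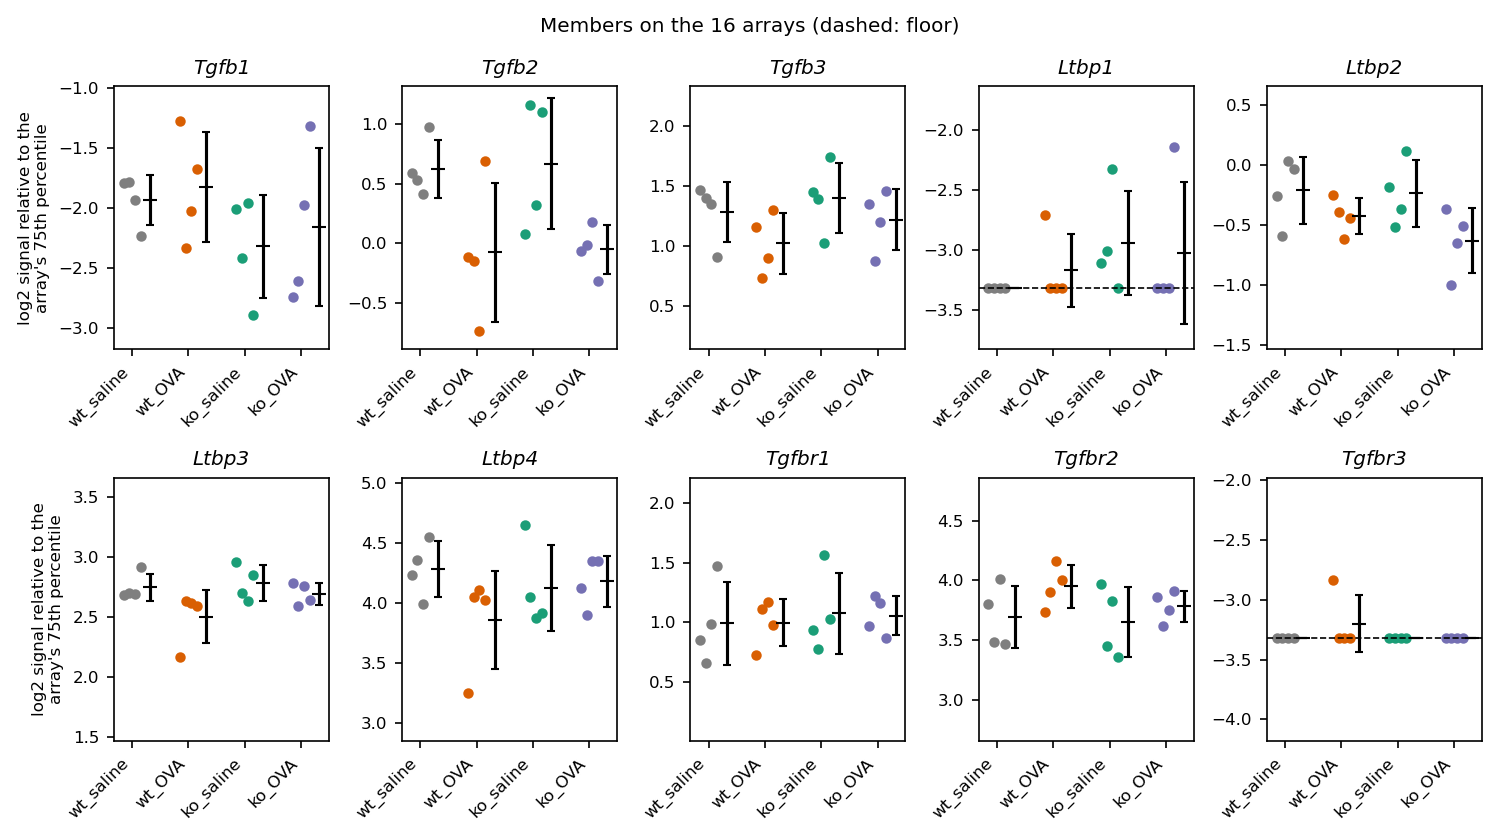
Log2 ratio of the signal to each array's 75th percentile (vertical axis) for the 10 genes in the 4 groups (horizontal axis); dots are the 4 arrays of a group, the bar beside them is the mean with SD, all panels span the same log2 range, and the dashed line is the floor at -3.32. Tgfb2 was lower on most OVA arrays of both genotypes, Ltbp1 and Tgfbr3 lay mostly at the floor, and wt_OVA 1 holds the lowest Ltbp3 and Ltbp4 dots at 2.17 and 3.25.

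The ligand Tgfb2 gave the largest OVA difference in the set. It encodes the isoform that is essential for development of the heart, palate and skeleton and whose propeptide lacks the integrin-binding motif. Tgfb2 levels were 0.59, 0.53, 0.41 and 0.97 on the wt_saline arrays and -0.11, -0.15, -0.73 and 0.69 on the wt_OVA arrays. The OVA arrays of wt were lower except wt_OVA 4, which lay inside the saline range. In ko, the saline arrays read 0.08, 1.16, 0.32 and 1.1 and the OVA arrays -0.06, -0.01, 0.18 and -0.31. There the groups met only where ko_OVA 3, the highest of its group, passed ko_saline 1, the lowest. The difference was -0.70 ± 0.28 (SE, adjusted p = 0.233) in wt and -0.72 ± 0.28 (SE, adjusted p = 0.393) in ko, and the difference between the genotypes, the interaction, was -0.02 with a 95% interval from -0.88 to 0.84.

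Averaged over the genotypes, Tgfb2 stood at 0.613 times its saline level after OVA (95% interval 0.454 to 0.826), a difference of -0.71 ± 0.20 with a limma adjusted p of 0.0517, just outside the threshold. The direction was the same under all 32 processing alternatives, which gave differences from -1.15 to -0.56 and adjusted p-values from 0.011 to 0.151. It passed the threshold under 8 of them. Among these were leaving out wt_OVA 4 (-0.83, limma adjusted p = 0.0155) and leaving out ko_saline 1 (-0.80, adjusted p = 0.0325). The first is the highest wt_OVA array and the second the lowest ko_saline array, so leaving either out must widen the difference. Leaving out any other single array gave no call. Taking the position of the array on its slide as a block also gave a call (-1.15, adjusted p = 0.011). Position was not balanced over the groups: position 4 held OVA arrays only, and wt_saline lay on positions 1 and 2. Agent and position are thus partly confounded, and with this block the calls over all genes went from 1200 to 525. Within slides that held both groups, Tgfb2 was lower after OVA in 2 of 3 slides for wt, with 0.10 on the remaining slide, and in 3 of 3 for ko. Such slide comparisons, here and below, set 1 array against 1 or 2 of the arrays already fitted, so they add no independent support.

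**Figure D2:**
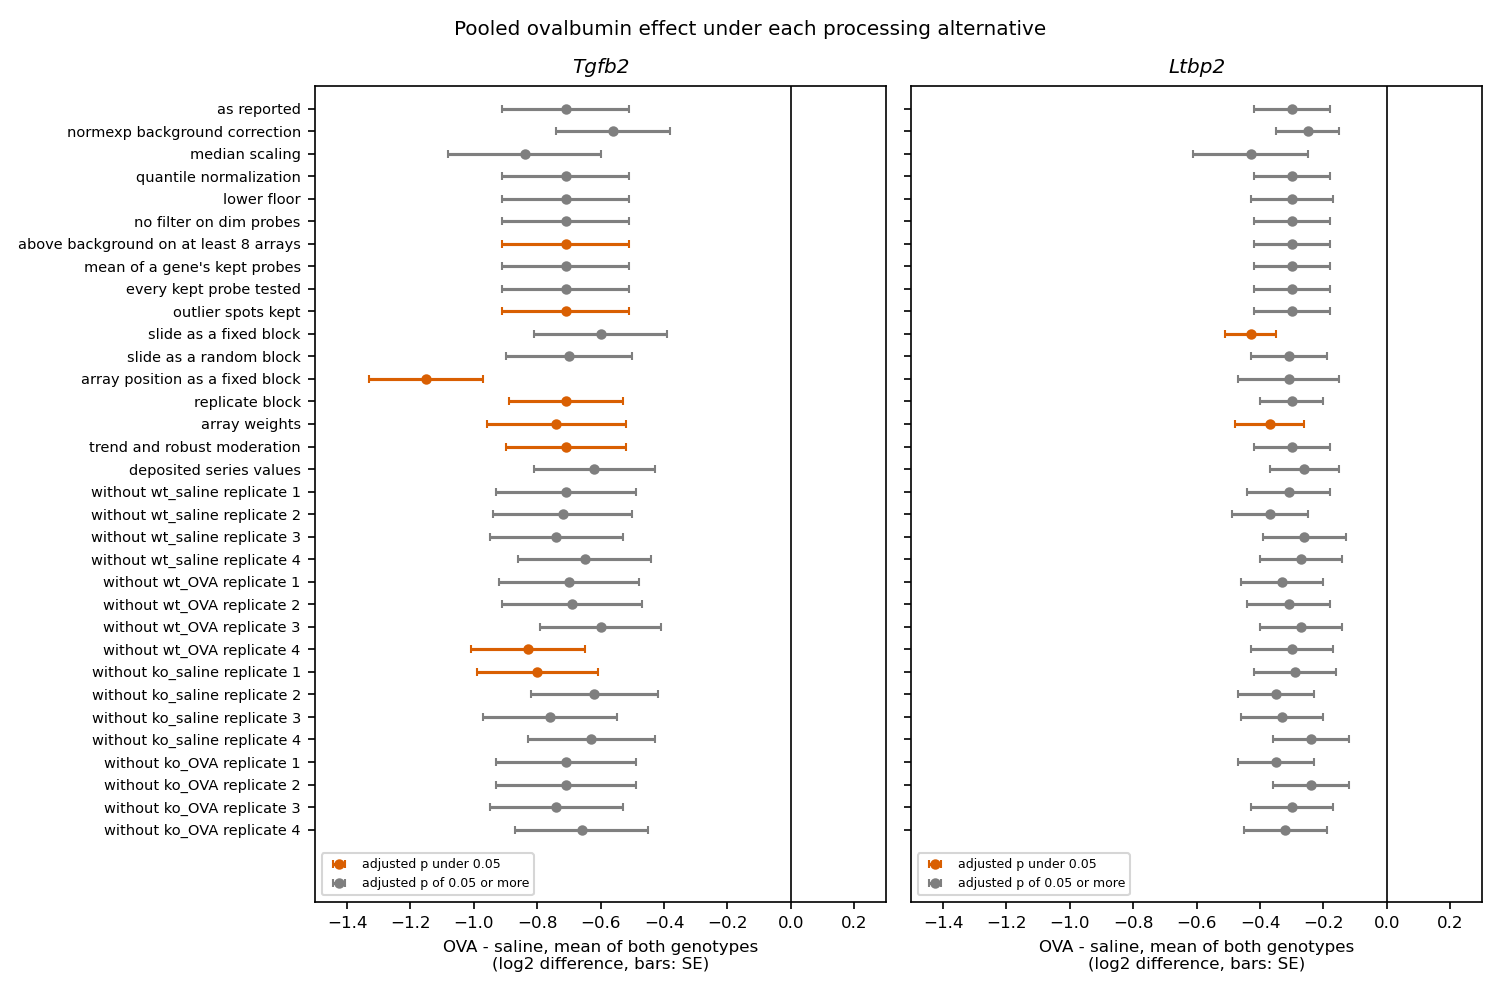
Log2 difference of OVA against saline, averaged over the genotypes (horizontal axis, bars show the SE), for Tgfb2 and Ltbp2 as reported and under each of 32 processing alternatives (vertical axis). All points lie below 0; orange points have an adjusted p under 0.05, 8 of them for Tgfb2 and 2 for Ltbp2.

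Levels of stromal cell markers are given beside Tgfb2. The mean level of the 14 fibroblast and smooth muscle markers ranged in wt from 0.30 to 0.70 after saline and from -0.75 to 0.68 after OVA, and in ko from 0.36 to 1.25 after saline and from -0.07 to 0.42 after OVA. Of these 14 genes, 1 fell with OVA over both genotypes, the smooth muscle gene Cnn1 (-2.31 ± 0.50, adjusted p = 0.0145), where 6.46% of all genes were called, and 13 were not called; the median difference of the list was -0.50 against 0.01 over all genes. Over the 16 arrays this list had a Pearson r of 0.58 with Tgfb2, as a description of arrays that also share group and slide. Its part in the Tgfb2 difference was not tested.

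Tgfb1, the isoform most abundant in immune cells and the best known target of the beta6 integrin, gave the largest differences between genotypes among the probes that stood for the genes, and none was called. Its levels were -1.79, -1.78, -1.93 and -2.23 in wt_saline and -2.01, -2.42, -1.96 and -2.89 in ko_saline. The knockout arrays with -2.01 and -1.96 lay within the wild-type range and the other two below it, so the groups overlapped. After OVA the levels were -1.27, -2.33, -2.02 and -1.67 in wt and -2.74, -2.61, -1.97 and -1.31 in ko, and the ranges overlapped. Knockout against wild type gave -0.39 ± 0.31 after saline (adjusted p = 0.905) and -0.34 ± 0.31 after OVA (adjusted p = 0.915; 0.01 when arrays were scaled to their median), and OVA gave 0.11 ± 0.31 in wt and 0.16 ± 0.31 in ko. With 95% intervals from -1.05 to 0.27 and from -1.0 to 0.33, a loss of Tgfb1 mRNA in ko to 0.482 times the wt level after saline cannot be told from no change here. The probe was spotted 10 times on each array, and the SD between spots was at most 0.182, while the SD between arrays of a group was 0.21 to 0.66. The 9 macrophage and dendritic markers, taken as their mean level, had a Pearson r of 0.73 with Tgfb1 over the 16 arrays; their part in the differences of Tgfb1 was not tested.

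Tgfb3, the isoform known for fusion of the palate, had lower means after OVA, with no called difference. Levels were 1.47, 1.40, 1.35 and 0.91 in wt_saline and 1.16, 0.73, 0.90 and 1.30 in wt_OVA. In ko they were 1.45, 1.39, 1.02 and 1.74 after saline and 1.35, 0.87, 1.20 and 1.46 after OVA. The ranges overlapped throughout. Differences with OVA were -0.26 ± 0.18 in wt and -0.18 ± 0.18 in ko, lower within 3 of 3 slides in each genotype, and the average of -0.22 ± 0.13 had a limma adjusted p of 0.386.

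RefSeq promoters show how the ligand genes Tgfb1 and Tgfb2 differ in the sequence at their start. Windows of 300 bases, from 250 before to 50 after each start on build GRCm38.p6, were given for 8 of the 10 genes and 12 starts. Tgfb3 and Tgfbr3 had no window, so their starts were not searched. The search covered 7 motifs on both strands in all 32851 windows. The GC box GGGCGG occurred in 35.7% of all windows and in 6 of the 12 windows here, those of Tgfb1, Ltbp2, Ltbp4 and Tgfbr1. The TATA box TATAAA occurred in 13.6% of all windows and here only in that of Tgfb2, 31 bases before its start. The E-box CACGTG, found in 7.15% of all windows, also occurred here only in Tgfb2, 51 bases before the start. The element TGACGTCA (1.79% of all windows) lay in the Ltbp1 window and the AP-1 site TGANTCA (7.81%) in that of Ltbp3. The Smad box GTCTAGAC (0.213%) and the CAGA box AGCCAGACA (0.387%) had no match in the 12 windows. The 250 bases before the start are printed for the ligands Tgfb1 and Tgfb2, which differ in these motifs, and for Ltbp2, which with Tgfb2 had an unadjusted p under 0.05 for OVA over both genotypes; capitals mark the matches to these motifs, and the Tgfb1 stretch lies at chr7:25686752-25687001 on the plus strand, that of Tgfb2 at chr1:186705990-186706239 on the minus strand and that of Ltbp2 at chr12:84876492-84876741 on the minus strand.
Tgfb1: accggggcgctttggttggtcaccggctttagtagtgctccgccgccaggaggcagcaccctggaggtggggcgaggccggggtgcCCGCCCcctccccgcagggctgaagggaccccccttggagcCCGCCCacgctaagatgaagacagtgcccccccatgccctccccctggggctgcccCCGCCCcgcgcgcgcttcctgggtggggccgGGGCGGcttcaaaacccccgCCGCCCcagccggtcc
Tgfb2: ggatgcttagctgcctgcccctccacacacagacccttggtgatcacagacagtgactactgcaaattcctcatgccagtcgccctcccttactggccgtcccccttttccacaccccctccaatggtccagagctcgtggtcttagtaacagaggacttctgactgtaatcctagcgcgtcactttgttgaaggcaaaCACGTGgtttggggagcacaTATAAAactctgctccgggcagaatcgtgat
Ltbp2: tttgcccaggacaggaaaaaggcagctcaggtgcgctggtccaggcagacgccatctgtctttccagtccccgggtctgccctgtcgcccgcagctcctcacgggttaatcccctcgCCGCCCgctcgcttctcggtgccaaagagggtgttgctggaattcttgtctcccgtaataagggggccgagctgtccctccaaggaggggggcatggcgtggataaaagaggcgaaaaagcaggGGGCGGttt
The Tgfb1 stretch holds 5 GC boxes and no TATA box, the Tgfb2 stretch the E-box and the TATA box close together and no GC box, and the Ltbp2 stretch 2 GC boxes. These matches are letters in a window and say nothing of which factor bound in these samples.

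Among the latency proteins, Ltbp2 was lower after OVA in both genotypes, by amounts that did not pass the threshold. Ltbp2 differs from its relatives in that it does not bind latent TGF-beta and is known as a partner of fibrillin and of elastic fibre proteins. Its levels were -0.26, -0.59, 0.03 and -0.03 in wt_saline and -0.25, -0.39, -0.62 and -0.44 in wt_OVA. In ko they were -0.18, -0.52, -0.37 and 0.12 after saline and -0.37, -1.0, -0.65 and -0.51 after OVA. In each genotype the lowest array was an OVA array, and the ranges overlapped. The difference was -0.22 ± 0.17 in wt (adjusted p = 0.556), -0.39 ± 0.17 in ko (adjusted p = 0.472) and -0.30 ± 0.12 averaged over both (adjusted p = 0.172). Within slides, Ltbp2 was lower after OVA in 3 of 3 slides in each genotype, by -0.47 to -0.18 in wt and by -0.76 to -0.18 in ko. Tgfb3 and Ltbp3 had the same count of slides, and the share over all genes was not computed. The average Ltbp2 difference was called with slide as a fixed block (-0.43, adjusted p = 0.0181) and with array quality weights (-0.37, adjusted p = 0.0402), and under none of the other 30 alternatives.

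Ltbp4, a binding protein of TGF-beta1 that also builds elastic fibres of the lung, had unlike OVA differences in the 2 genotypes, which moved closer without wt_OVA 1; neither was called. In wt the levels were 4.24, 4.36, 3.99 and 4.55 after saline and 3.25, 4.05, 4.11 and 4.03 after OVA. In ko they were 4.65, 4.05, 3.88 and 3.92 after saline and 4.13, 3.90, 4.35 and 4.35 after OVA. The low value was that of wt_OVA 1, and the remaining 3 wt_OVA arrays lay within the range of wt_saline. OVA gave -0.42 ± 0.21 in wt (adjusted p = 0.342) and 0.06 ± 0.21 in ko, and the interaction of 0.48 ± 0.30, the largest of the set, had a limma adjusted p of 0.993. Without wt_OVA 1 the difference in wt was -0.22 and the interaction 0.28.

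Ltbp3, which helps the cell to secrete latent TGF-beta1, was measured by 2 probes that disagreed. On the brighter one, levels were 2.68, 2.70, 2.69 and 2.92 in wt_saline and 2.17, 2.63, 2.62 and 2.59 in wt_OVA. Every OVA array of wt lay below every saline array on this probe, whereas the ranges overlapped on the dimmer one. The difference was -0.24 ± 0.11 (adjusted p = 0.308), and -0.13 without wt_OVA 1, the lowest of the 4. The share of all genes separated in this way was not computed, and 16.5% of all genes had an unadjusted limma p under 0.05 in this contrast. In ko the levels were 2.96, 2.70, 2.63 and 2.85 after saline and 2.78, 2.59, 2.76 and 2.64 after OVA, which overlapped, with a difference of -0.09 ± 0.11. Knockout against wild type gave 0.04 ± 0.11 after saline and 0.19 ± 0.11 after OVA on this probe.

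The dimmer Ltbp3 probe gave the opposite sign for the knockout. Its levels were -2.14, -1.90, -1.96 and -2.01 in wt_saline and -2.20, -2.38, -2.75 and -2.28 in ko_saline, groups that did not overlap, with a difference of -0.40 ± 0.12 (adjusted p = 0.503 over all probes). After OVA they were -2.08, -2.04, -1.85 and -2.06 in wt and -2.05, -2.46, -2.31 and -2.19 in ko, with a difference of -0.24 ± 0.12. How many of all probes separate the saline groups without overlap was not computed. Both probes carry the accession NM_008520, and the direction of the Ltbp3 difference between genotypes depends on which of them is read.

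Ltbp1, the first known and best studied of these binding proteins, was too dim to compare. Its brighter probe was above background on 7 of 16 arrays and left the floor on 5, which were wt_OVA 1 at -2.71, ko_saline 1, 2 and 3 at -3.11, -3.01 and -2.32, and ko_OVA 4 at -2.14. All 4 wt_saline arrays were at the floor. Knockout against wild type after saline gave 0.38 ± 0.26 (adjusted p = 0.904), a difference whose size depends on the floor. The other Ltbp1 probe was above background on 2 arrays, both of wt_OVA, and was not tested.

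The signalling receptors gave no called difference. Tgfbr2, the type II receptor that binds free ligand, read 3.80, 3.49, 4.01 and 3.47 in wt after saline and 3.74, 3.90, 4.16 and 4.00 after OVA. In ko it read 3.97, 3.45, 3.83 and 3.36 after saline and 3.86, 3.62, 3.75 and 3.91 after OVA. The OVA and saline ranges overlapped in both genotypes, and the OVA means were the higher; the difference in wt was -0.02 when arrays were scaled to their median, and that in ko was 0 with normexp background correction. OVA gave 0.26 ± 0.16 in wt (adjusted p = 0.45) and 0.13 ± 0.16 in ko (adjusted p = 0.914), and the 95% interval in wt ran from 0.948 to 1.51 times the saline level. The dimmer Tgfbr2 probe, for the transcript NM_029575, gave 0.35 ± 0.25 and 0.04 ± 0.25, and for knockout against wild type after OVA -0.51 ± 0.25 (adjusted p = 0.866 over all probes), where the brighter probe gave -0.17 ± 0.16.

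Tgfbr1, the type I receptor kinase that phosphorylates Smad2 and Smad3, gave the smallest OVA differences of the set among the genes measured above background on every array. In wt the levels were 0.85, 0.66, 0.99 and 1.47 after saline and 0.73, 1.11, 1.17 and 0.98 after OVA. In ko they were 0.94, 0.78, 1.56 and 1.03 after saline and 0.97, 1.22, 1.16 and 0.87 after OVA. In both genotypes the saline and OVA ranges overlapped almost wholly. OVA gave 0.01 ± 0.19 in wt (-0.27 with median scaling) and -0.02 ± 0.19 in ko, averaging -0.01 with a 95% interval of 0.818 to 1.21 times the saline level. The dimmer Tgfbr1 probe left the floor on 1 of 16 arrays, wt_OVA 1.

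Tgfbr3, or betaglycan, the co-receptor that presents TGF-beta2 to the type II receptor, was above background on 7 of 16 arrays and left the floor on wt_OVA 1 only, at -2.84. Its fitted differences of -0.12 to 0.12 therefore describe that array. No level of Tgfbr3 in a group can be given beyond this bound.

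**Figure D3:**
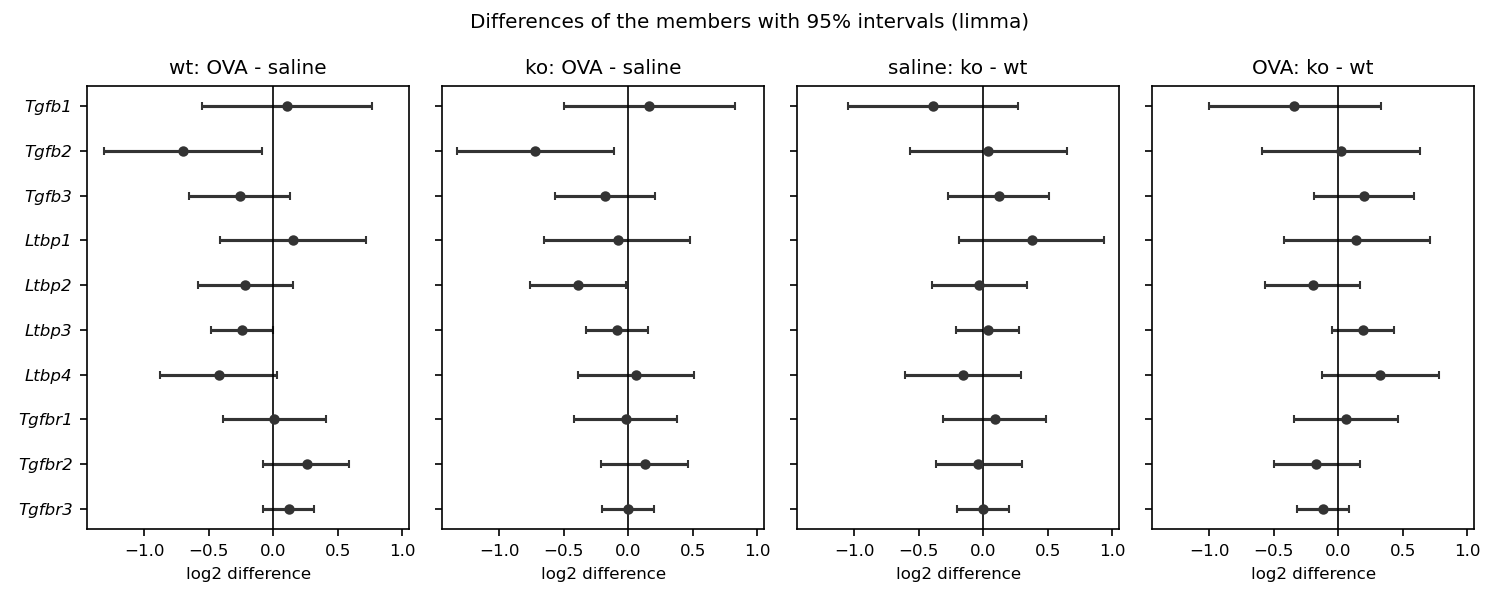
Log2 differences (horizontal axis) of the 10 genes (vertical axis) with 95% intervals from limma, for OVA minus saline in wt and in ko and for ko minus wt after saline and after OVA. The intervals for Tgfb2 with OVA lie below 0 in both genotypes, at -0.70 and -0.72, and that for Ltbp2 with OVA in ko reaches -0.02; these are intervals per gene, without adjustment for the number of genes.

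The order of the 4 groups differed between genes. For Tgfb2 the group means were 0.67 in ko_saline, 0.63 in wt_saline, -0.05 in ko_OVA and -0.07 in wt_OVA, with SDs of 0.20 to 0.58: neighbours given the same agent differed by less than these SDs, and the wider step lay between the agents. For Ltbp2 they were -0.21 in wt_saline, -0.24 in ko_saline, -0.43 in wt_OVA and -0.63 in ko_OVA, again in order of agent, with SDs of 0.15 to 0.28; the ranges of neighbouring groups overlapped, and median scaling puts ko_OVA above wt_OVA by 0.14. For Tgfb1 the order followed genotype, from -1.82 in wt_OVA and -1.93 in wt_saline to -2.16 in ko_OVA and -2.32 in ko_saline, with SDs of 0.21 to 0.66. The ranges of neighbouring groups overlapped, and median scaling puts the ko_OVA mean of Tgfb1 above that of wt_OVA by 0.01, so the order did not hold there. Over the 10 genes the median difference was -0.10 for OVA in wt, -0.05 for OVA in ko, 0.02 for the knockout after saline and 0.04 for the knockout after OVA, where the median over all genes was 0.

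Among 90 measured genes of 6 other lists of the pathway, 6 were called with OVA over both genotypes, a share of 6.67% beside 6.46% of all genes, so this count lay near the background. In wt 5 of the 90 were called (5.56%, beside 2.61% of all genes) and in ko 2 (2.22%, beside 0.749%). Plat, the tissue plasminogen activator, which makes plasmin, a protease that can release latent TGF-beta, rose by 1.24 ± 0.19 in wt (adjusted p = 0.00378) and by 1.66 ± 0.19 in ko (adjusted p = 0.000932). Its level went from -0.25 ± 0.41 (SD, n = 4) in wt_saline to 1.00 ± 0.28 in wt_OVA and from -0.89 ± 0.20 in ko_saline to 0.77 ± 0.20 in ko_OVA. It was the only called gene among 14 measured activators of latent TGF-beta, whose median differences were 0.09 in wt and -0.01 in ko. The call held without any single array.

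Of 13 measured other ligands of the superfamily, 2 fell and 1 rose with OVA in wt, and 1 fell in ko. Bmp4, a bone morphogenetic protein that guides branching of the lung, fell by 0.91 ± 0.18 in wt (adjusted p = 0.0174) and fell by 1.62 ± 0.18 in ko (adjusted p = 0.000932). Saline levels of Bmp4 were 0.38 ± 0.15 (SD, n = 4) in wt and 1.09 ± 0.20 in ko, and OVA levels were -0.53 ± 0.13 and -0.52 ± 0.46, so the ko mean was the higher after saline and the means met after OVA; neither the difference after saline (0.72 ± 0.18, adjusted p = 0.341) nor the interaction was called. Bmp3, a member of the same family that opposes BMP signalling in bone, fell by 1.13 ± 0.26 in wt (adjusted p = 0.0324). Inhba, which encodes the activin A subunit, rose by 0.70 ± 0.17 in wt (adjusted p = 0.0455). With each of the 16 arrays left out in turn, the wt call for Bmp3 held in 10 of 16 fits (limma adjusted p up to 0.106). That for Inhba held in 4 of 16 (adjusted p up to 0.129) and was lost also without some ko arrays. Both were lost without wt_OVA 1, and the Bmp4 call in wt was lost without wt_saline 1 (adjusted p = 0.0604). Averaged over the genotypes, Bmp4 (-1.26 ± 0.13) and Bmp3 (-0.95 ± 0.18) stayed called without any single array.

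Vasn, a membrane protein whose shed part can bind TGF-beta, was the only called gene among 12 measured matrix and binding partners. It fell by 0.99 ± 0.23 in wt (adjusted p = 0.0333) and, averaged over the genotypes, by 0.87 ± 0.16 (adjusted p = 0.00523). The call in wt was lost on leaving out any of 6 wt arrays (adjusted p up to 0.102), whereas the average held without any single array. Of 10 co-receptors and related receptors, 1 fell with OVA over both genotypes: Acvrl1, a type I receptor best known in endothelium, by 0.43 ± 0.10 (adjusted p = 0.0249; 0.0537 without ko_saline 2). Of 8 endothelial markers 1 was called in that contrast, where 6.46% of all genes were. It was the receptor Kdr, which fell by 1.99 ± 0.34 (adjusted p = 0.00301) and lay at the floor on 2 wt_OVA arrays and 1 ko_OVA array. The median difference of the list was -0.05, and its values ran up to 0.52, for Vwf. Its mean level lay between -2.97 and -1.58 on all arrays. The part of that list in the Acvrl1 difference was not tested.

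Counts for Smads, their regulators and target genes are given beside the shares of all genes. Of 21 measured Smads and regulators of Smad signalling, none was called in any of the 7 contrasts, where 0% to 6.46% of all genes were. Their medians were -0.01 for OVA in wt and 0.07 in ko, with values from -0.52 to 0.33 across these. At an unadjusted limma p under 0.05 there were 0 to 3 of them per contrast, beside 3.06% to 19.7% of all genes. Of 20 known target genes of TGF-beta, 0 were called for OVA in wt, OVA in ko or ko against wt, where 0.145% to 2.61% of all genes were. At an unadjusted limma p under 0.05 there were 5 for OVA in wt (16.5% of all genes) and 1 for OVA in ko (9.73%). There was 1 in each comparison of ko with wt (6.3% of all genes after saline, 5.08% after OVA, 7.77% on average). Averaged over the genotypes 1 of the 20 targets was called with OVA, beside 6.46% of all genes. It was Id1, an inhibitor of differentiation that BMP signals induce, which fell by 0.81 ± 0.23 (adjusted p = 0.0484). This call was lost on leaving out any of 13 arrays (adjusted p up to 0.102). The target list had a median of -0.33 with OVA in wt and 0.00 in ko. It shares Col1a1, Col1a2, Col3a1, Acta2 and Tagln with the fibroblast and smooth muscle list, so the 2 lists are not independent. Its genes were not sorted by whether TGF-beta raises or lowers them, so the median gives no direction of signalling. In the contrasts of ko against wt none of the 6 pathway lists had a called gene in limma, where 0.145% to 0.269% of all genes were called. Averaged over the agents, an unadjusted limma p under 0.05 was found for 7.77% of all genes. It was found for 4 of 14 activators, a list that holds Itgb6 itself, 3 of 13 other ligands and 2 of 12 matrix and binding partners. The counts were 2 of 21 Smads and regulators, 1 of 20 targets and 0 of 10 co-receptors and related receptors.

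**Figure D4:**
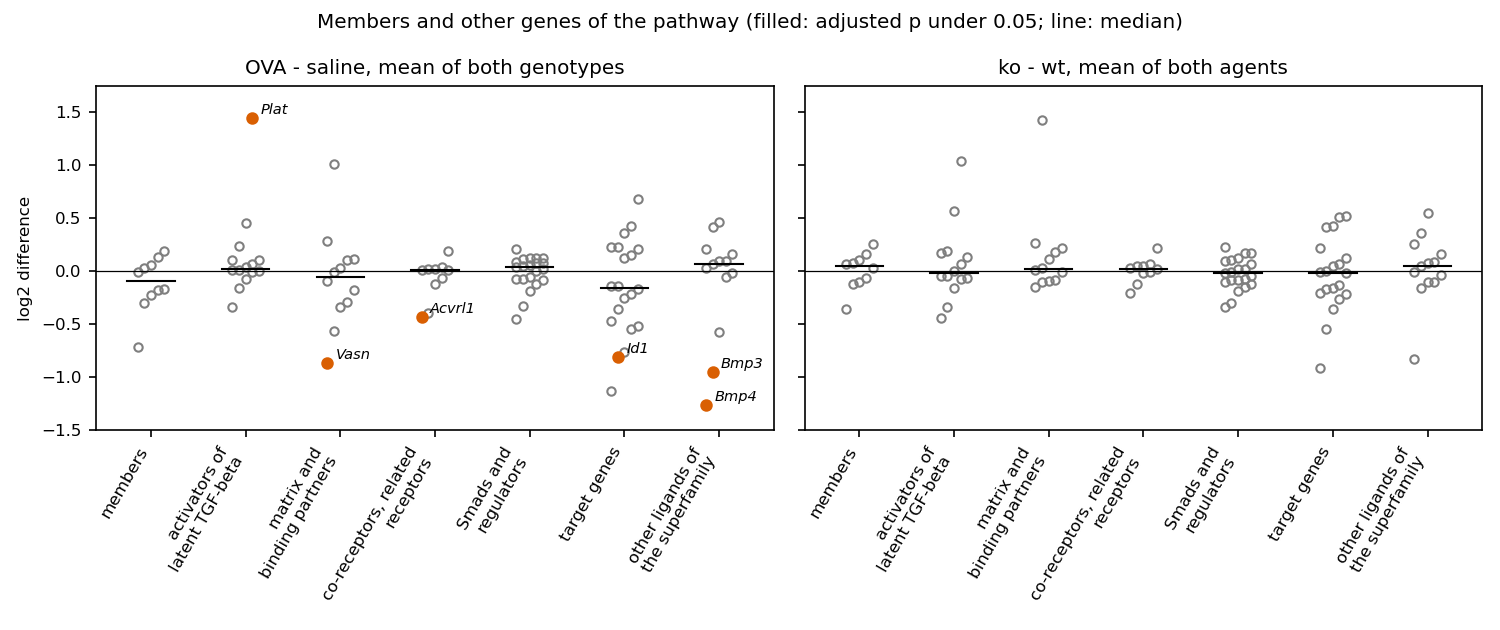
Log2 differences (vertical axis) of each measured gene in the set of 10 and in 6 other lists of the pathway (horizontal axis), for OVA minus saline averaged over the genotypes and for ko minus wt averaged over the agents; filled points are called by limma at an adjusted p under 0.05 and lines are medians. With OVA, 6 genes outside the set were called, from Plat at 1.45 to Bmp4 at -1.26, and for ko minus wt no gene shown was called.

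Of the other cells that the brushings could hold, mast cells differed in the most markers between genotypes. The mean level of 8 mast cell markers ran in wt from -1.88 to -1.04 after saline and from 0.16 to 0.69 after OVA. In ko it ran from 2.23 to 2.54 after saline and from 2.36 to 3.12 after OVA. For ko against wt after saline 7 of the 8 were called, beside 0.162% of all genes. The Pearson r of this mast cell mean level with the 8 members measured off the floor lay between -0.33 and 0.14 over the 16 arrays. Markers of airway epithelium rose in part: 4 of 11 were called with OVA over both genotypes, beside 6.46% of all genes. They were Dnah5 (0.64 ± 0.12), Foxj1 (0.39 ± 0.09), Epcam (0.29 ± 0.07) and Muc5b (0.98 ± 0.24), genes of ciliated, general epithelial and mucous cells. Outlier spots left Dnah5 with 3 arrays in each group and Foxj1 with 3 in ko_saline. With each of the 16 arrays left out in turn, the calls of Foxj1, Epcam and Muc5b held in 12, 15 and 6 of 16 fits (limma adjusted p up to 0.0734, 0.0523 and 0.0641). The epithelial list had a median difference of 0.12 in that contrast, where Tgfb2 and Ltbp2 were lower. The mean levels of 3 red blood cell and 10 striated muscle markers varied widely within groups, the former from -1.06 to 6.21 in wt_saline, 0.41 to 6.59 in wt_OVA, 0.77 to 3.91 in ko_saline and 0.51 to 6.49 in ko_OVA, and the latter from -2.59 to 4.42 in ko_saline and -2.90 to -1.57 in ko_OVA. The part of either list in the members' levels was not tested. The r of the striated muscle mean level with a member over the 16 arrays was at most 0.57 in size, for Ltbp4 (-0.57, and -0.36 without wt_OVA 1). With Tgfb2 it was 0.36, and 0.54 without wt_OVA 1, then the largest in size among the members.

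The members varied largely apart from one another. Of 28 pairs among the 8 genes measured off the floor on at least 12 arrays, 4 had a Pearson r above 0.5 in size over the 16 arrays, which share depth, slide and group. Ltbp3 and Ltbp4 had the highest r at 0.83, and 0.64 without wt_OVA 1. Tgfb2 and Tgfbr2 had the lowest at -0.70, and -0.72 without that array, so a high ligand level went with a low type II receptor level. Tgfb3 and Tgfbr1 had -0.60, and -0.66 without it, while Tgfb1 and Ltbp3 had -0.53, and -0.32 without it.

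Among 12852 other named genes, those whose pattern over the 16 arrays was most like each member were found by Pearson r. For Tgfb1 they were Gmip (0.94), Myo1f (0.90) and Ptk2b (0.89). For Tgfb2 they were Hacd3 (0.87), Elovl7 (0.84) and Tent5b (0.83), and for Tgfb3 Nsun4 (0.83), Acss1 (0.80) and Mrpl55 (0.80). For Ltbp2 they were Echdc3 (0.83), Abat (0.78) and Fah (0.77), for Ltbp3 Pgrmc1 (0.91), Tbc1d25 (0.91) and Aldh6a1 (0.89), and for Ltbp4 Maf1 (0.91), Cox19 (0.87) and Pir (0.86). For Tgfbr1 they were Pcgf5 (0.88), Ranbp2 (0.87) and Agfg1 (0.87), and for Tgfbr2 Abcc1 (0.88) and Apmap (0.87). No gene was named for 2 members. Without wt_OVA 1 the r of these genes with Ltbp4 was 0.75 to 0.84, and that of Gmip with Tgfb1 stayed at 0.94.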

How the data were processed

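The members and gene lists were chosen with earlier results of these data known. RNA (0.5 ug) was labelled with Cy3 and hybridized to mouse arrays; per the file headers the deposited intensity values are background-subtracted processed signals of Agilent Feature Extraction 10.5.1.1 (10.1 per the submitters' processing notes), beside other columns with flags per spot. The deposited series table holds log2 values, used only as an alternative.

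Control and outlier-flagged spots were left out, spots of a probe averaged, signals divided by the array's 75th percentile, raised to a common floor of -3.32 (each array has a lowest signal that counts as well above background, and the floor is the highest of these) and log2 transformed. Kept were the 25622 of 41174 probes that passed the background flag on 4 or more of the 16 arrays, and the brightest stood for its gene. RefSeq accessions (GRCm38.p6) named 24844 probes. The array is designed on another build, so no gene coordinates are given. All 16 arrays were fitted in limma 3.58.1 (R 4.3.3), with 1 mean per group, 7 contrasts and Benjamini-Hochberg adjustment over 18570 genes at 0.05; the code was tested on simulated data. Named were all members, Itgb6, up to 3 called genes per pathway list and contrast, and the 3 genes most like each member off the floor on at least 12 arrays, of which 1, for Tgfbr2, is not reported here; marker genes were named after their values were seen. Lists held 211 genes, 176 of them measured. There were 33 alternatives, 16 of which leave out an array. Leaving out arrays for pathway and marker genes, and leaving wt_OVA 1 out of correlations, were added after seeing the data.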

Additional observations from a re-analysis of the deposited data

Results flagged for a closer look

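Within groups of 4 arrays, 6 of 40 gene and group combinations held an array far from the others, and 4 of these 6 were on wt_OVA 1. Of the 32 combinations with no array at the floor, 3 did so, where chance gives about 1 in 20; in the other 3 the remaining arrays tied at the floor, so their gap is set by the ties and that rate does not apply. On that array Ltbp4 read 3.25, against 4.03 or more on the other wt_OVA arrays, and Ltbp3 read 2.17, against 2.59 or more. Ltbp1 at -2.71 and Tgfbr3 at -2.84 were the only wt_OVA values off the floor of -3.32. On wt_saline 4, Ltbp3 read 2.92, against at most 2.70 on the other arrays of its group. On ko_OVA 4, Ltbp1 read -2.14, with the rest of the group at the floor.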

How the results depend on the processing

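Of 2250 values of members under 33 alternatives, 10 passed the threshold and 29 turned, changing sign by more than 1 SE of the reported value, none of them called. The other 2211 kept their side of the threshold. Some of these changed sign by a smaller step, such as Ltbp1 for OVA over both genotypes (0.03 as reported, -0.13 with normexp). The number of members called for OVA over both genotypes was 1 under the filter of at least 8 arrays, outlier spots kept, slide as a fixed block, array position as a block, the replicate block and trend and robust moderation, 2 with array weights, and 0 to 1 on leaving out an array; it was 0 in the other contrasts. Replicate numbers did not pair the arrays (r of deviations -0.401 to 0.422, 9 of 24 above 0.1); with the replicate block Tgfb2 had -0.71 (adjusted p = 0.0479). Normexp turned the knockout difference of Ltbp1 after OVA (-0.24) and on average (-0.06) and the interaction of Tgfbr3 (0.17). Median scaling, which moves the median of all genes by -0.25 (OVA in wt), 0.32 (ko after OVA), 0.28 (interaction) and 0.18 (ko average), turned OVA in wt for Tgfbr1 (-0.27) and Tgfbr2 (-0.02), ko after OVA for Tgfb1 (0.01), Ltbp2 (0.14) and Tgfbr2 (0.18), the interaction for Ltbp2 (0.12), Tgfbr1 (0.26) and Tgfbr2 (0.16), and the ko average for Ltbp2 (0.08) and Tgfbr2 (0.10). The mean of probes turned Ltbp3 for OVA in ko (0.03) and for ko after saline (-0.18), after OVA (-0.03) and on average (-0.10), since its probes disagree. Slide as a fixed block turned the ko average of Ltbp2 (0.01). The position block turned ko for Tgfb2 after saline (-0.33), after OVA (-0.36) and on average (-0.34), for Tgfb3 after OVA (-0.02) and on average (-0.02) and for Tgfbr2 on average (0.05), and OVA over both genotypes for Ltbp4 (0.01) and Tgfbr3 (-0.02). The deposited values turned the interaction of Tgfbr3 (0.06) and the OVA average of Ltbp1 (-0.16). Leaving out single arrays gave ko after OVA for Ltbp1 from -0.15 to 0.30, turning only without ko_OVA 4. Except where stated, the cause was not tested. Over all genes, calls ranged from 369 to 2383 for OVA over both genotypes, 94 to 1407 in wt, 35 to 328 in ko, 15 to 125 for ko after saline, 7 to 38 after OVA, 27 to 178 on average and 0 to 3 for the interaction. Ltbp1, Tgfbr3 and the dimmer Tgfbr1 probe are limited by background.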
